A study of Homo sapiens with 9 samples.

Results

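Axon guidance genes encode the secreted or membrane-bound cues that steer growing neurites and the receptors that read them. Their expression was described over 3 groups of samples of SMS-KCNR, a cell line established from a human neuroblastoma. The first group received simvastatin (5 µM) together with mevalonate (2 mM), the second simvastatin alone at the same dose, and the third the solvent DMSO, each for 30 hours and with 3 arrays per group. Simvastatin blocks the synthesis of mevalonate, the precursor of cholesterol and of the lipid anchors of small GTPases, so the group with added mevalonate addresses which differences depend on that product. All samples were of this 1 line in serum-containing medium. The samples of a group are called independent, without a statement on separate cultures or days, so the p-values measure the spread between these samples, which may be technical.

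The genes were taken by symbol from the platform's probe annotation, namely plexins, neuropilins, Slits, netrins and netrin-Gs, DCC and UNC5 receptors, ephrins and Eph receptors, LINGO proteins and Nogo receptors. Semaphorin, ROBO and SLITRK symbols were searched as well and are not analysed here. In all 59 of 14884 genes matched, of which 17 were classed as ligands and 36 as receptors or co-receptors. The LINGO genes were placed in the receptor class as a family. The remaining 6 were 4 antisense RNA genes (EPHA1-AS1, EPHA5-AS1, LINGO1-AS1 and UNC5B-AS1) and UNC50 and UNC5CL. The last 2 matched by symbol and were not counted as receptors of a guidance cue. Each gene was represented by 1 probeset, the brighter one for LINGO2, which had 2.

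Guidance cues work in ligand and receptor pairs. Slits are secreted, mostly repulsive cues read by ROBO receptors. Semaphorins are read by plexins, with neuropilins as co-receptors. Netrins attract through DCC and repel through UNC5 receptors. Ephrins stay on the membrane and signal to Eph receptor tyrosine kinases on touching cells. LINGO1 acts with the Nogo receptor in the inhibition of axon growth by myelin. In the sympathetic lineage, from which neuroblastoma arises, these systems guide neural crest migration and sympathetic axons.

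Values are the authors' deposited log2 expression values, which have been normalized between arrays. They carry no fixed zero, and values of different genes cannot be compared directly, so changes are given as differences of 1 gene between groups. Positions against the median of all values are only a rough guide to signal. Sums over markers are set only between groups. The median of all values was 5.19, taken over all probesets, also those without a gene symbol. Of the 59 genes, 11 lay below it on all 9 arrays, while 40 lay above it on all 9 arrays. Among all 14884 genes, 4000 lay below and 9401 above it on all 9 arrays. Lying above it is therefore common and does not by itself mark a cell type. Arrays of the same group correlated across genes with r from 0.994 to 0.996. Between arrays of the same group, up to 7.64% of genes had exactly equal values. Such ties lower the spread within a group on which the p-values rest, and their source was not tested. HMGCS1, an early enzyme of cholesterol synthesis, served as a check of the drug. Its log2 change was 1.66 ± 0.05 (SE) for simvastatin against DMSO and -1.06 ± 0.05 for added mevalonate against simvastatin alone. With simvastatin plus mevalonate it remained 0.60 ± 0.05 above DMSO without overlap (limma adjusted p = 0.0129). This last call was lost under several alternatives, among them without any 1 DMSO array (adjusted p up to 0.0795) and with the replicate number as a block (0.0904). Of the markers of sympathetic neuroblasts, all 6 measured lay above the median of all values on every array. The sum of their log2 values ran from 60.60 to 60.89 with simvastatin plus mevalonate, from 58.56 to 58.58 with simvastatin and from 60.91 to 61.06 with DMSO. GATA3, ISL1, TH and DBH fell with simvastatin against DMSO and rose with added mevalonate, with the largest falls for DBH (-1.21) and ISL1 (-0.74). The other measured markers, PHOX2A and HAND2, were not called, at log2 changes of -0.02 and -0.01 for simvastatin against DMSO. The part of this marker shift in the results below was not tested. The 3 measured endothelial and blood markers lay below the median of all values on every array. Their sums ran from 14.54 to 15.22 with simvastatin plus mevalonate, from 14.47 to 14.96 with simvastatin and from 13.96 to 14.82 with DMSO. Of 4 Schwann cell markers 2 lay below it on every array, with sums from 20.42 to 20.72 with simvastatin plus mevalonate, from 20.01 to 20.17 with simvastatin and from 19.98 to 20.50 with DMSO. All 3 measured fibroblast or mesenchymal markers lay above it, with sums from 19.98 to 20.33 with simvastatin plus mevalonate, from 19.59 to 20.17 with simvastatin and from 20.01 to 20.30 with DMSO. Among them FN1, which encodes fibronectin, fell by 0.38 ± 0.06 (SE) on the log2 scale with simvastatin against DMSO (limma adjusted p = 0.00377) and rose by 0.34 ± 0.06 with added mevalonate (adjusted p = 0.00774). PRRX1 and VIM were not called, at log2 changes of 0.08 and 0.10 for simvastatin against DMSO, with the simvastatin arrays of VIM above those of DMSO. The part of FN1's shift in the results below was not tested either.

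To determine what simvastatin changed in this system, the simvastatin and DMSO arrays were compared. The 3 Slit ligand genes, the ephrin ligand EFNB2 and the netrin-G ligand NTNG1 were lower with simvastatin. So were the co-receptor NRP1, the LINGO family genes LINGO2 and LINGO4 and the receptor PLXNA4, while the receptor PLXNA2 was higher. In total 9 of 59 genes fell and 1 rose (limma, Benjamini-Hochberg adjusted p under 0.05 over all 14884 genes). Over all genes, 7.38% fell and 5.98% rose, together 13.4% called, against 16.9% of the guidance genes. With both directions together the guidance genes were thus called at close to the overall rate. Their median log2 change of 0.01 was near that of all genes (0.01). The directions were uneven among them, with 9 falls and 1 rise, and this split was not tested. Of the 53 ligand and receptor genes alone, 18.9% were called. The simvastatin arrays lay above all DMSO arrays for 10 guidance genes and below them for 12, while 28.6% of all genes lay apart between these groups. Lower values in a bulk sample can mean less RNA per cell or fewer cells that express the gene, which cannot be told apart here.

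With mevalonate added to simvastatin, 8 of the guidance genes rose and 1 fell against simvastatin alone (limma, adjusted p under 0.05), while over all genes 5.31% rose and 5.72% fell (11.0% called). The genes that rose were EFNB2, NTNG1, SLIT1, SLIT3, PLXNA4, NRP1, LINGO2 and LINGO4, and the one that fell was PLXNA2. Of the 10 genes called between simvastatin and DMSO, only SLIT2 missed the threshold here. The mevalonate arrays lay above all simvastatin arrays for 10 guidance genes and below them for 5, with 27.3% of all genes lying apart. Both comparisons use the simvastatin arrays, so their values are not independent and are given side by side. Between simvastatin plus mevalonate and DMSO, 0 of 59 guidance genes were called by limma (4 had an unadjusted p under 0.05), against 0.0739% of all genes (0.0336% higher and 0.0403% lower). Of the guidance genes 1 lay above and 3 below DMSO without overlap, with 16.5% of all genes lying apart. For the 10 genes called with simvastatin, log2 differences between simvastatin plus mevalonate and DMSO ran from -0.32 to 0.06.

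**Figure D1:**
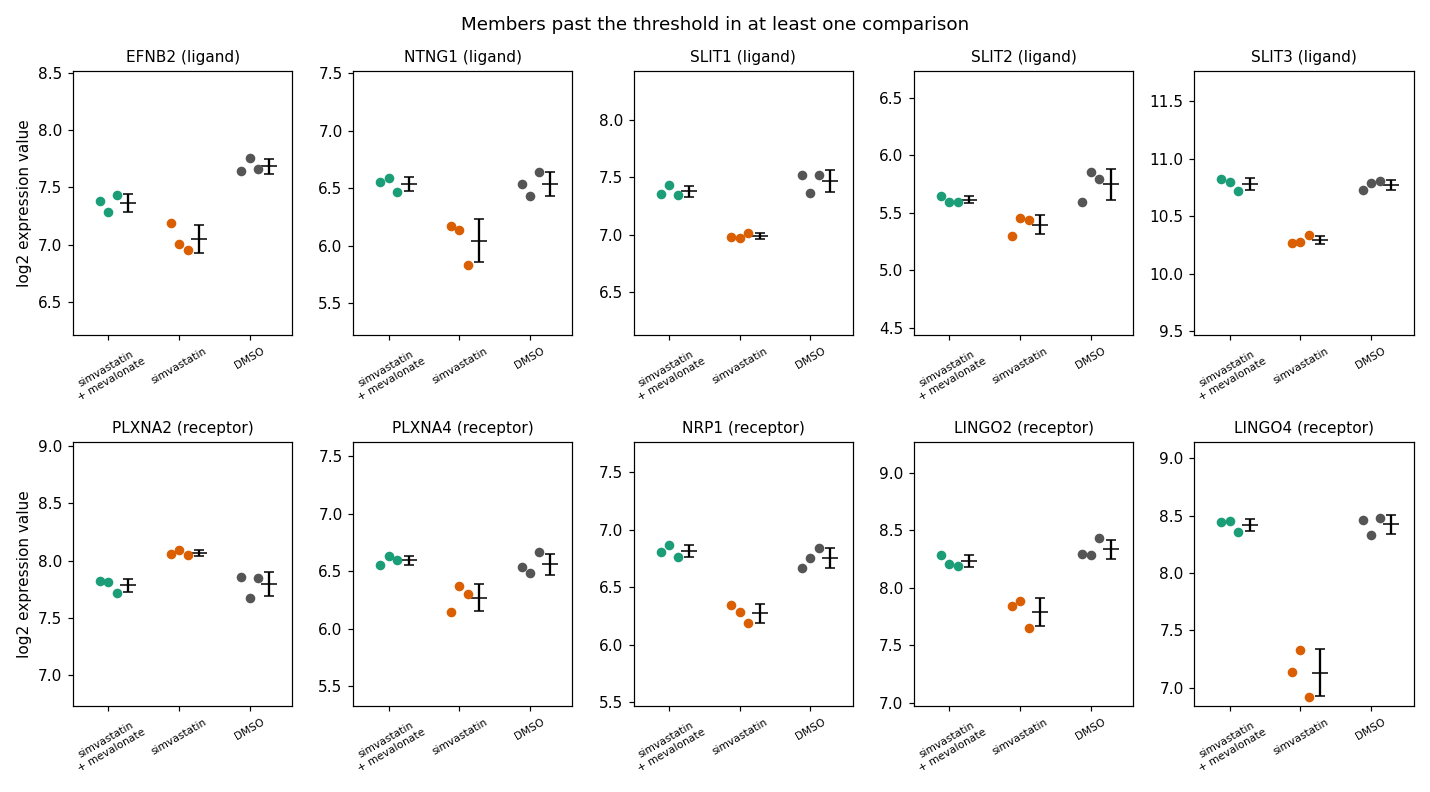
Log2 expression values of the 10 guidance genes past the threshold, 1 panel per gene with a common span of the vertical axis. Points are single arrays, and bars to their right give the mean ± SD (n = 3) for simvastatin plus mevalonate, simvastatin and DMSO. In each panel the simvastatin arrays lie apart from both other groups, above them for PLXNA2 and below them for the other 9.

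The Slit family was the only one with more than 1 measured gene in which every gene passed the threshold for simvastatin against DMSO. SLIT3 had log2 values of 10.82, 10.80 and 10.72 with simvastatin plus mevalonate, 10.26, 10.28 and 10.34 with simvastatin, and 10.73, 10.79 and 10.81 with DMSO. The simvastatin arrays lay below all others, and the other groups overlapped. SLIT3 was 1.40-fold lower with simvastatin than with DMSO (log2 change -0.48 ± 0.05 SE, limma adjusted p = 0.000267) and 1.40-fold higher with added mevalonate than with simvastatin alone (adjusted p = 0.000331). Its log2 difference between simvastatin plus mevalonate and DMSO was 0.01, with a 95% interval from -0.10 to 0.11.

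SLIT1, a Slit expressed mainly in the nervous system, had log2 values of 7.35, 7.43 and 7.35 with simvastatin plus mevalonate, 6.98, 6.97 and 7.01 with simvastatin, and 7.52, 7.36 and 7.52 with DMSO. Again the simvastatin arrays were the lowest and did not overlap with either other group. The log2 change was -0.48 ± 0.05 (SE) for simvastatin against DMSO (limma adjusted p = 0.000667) and 0.39 ± 0.05 for added mevalonate against simvastatin (adjusted p = 0.00245). SLIT2, the best studied repellent of the family, lay close to the median of all values. Its log2 values were 5.65, 5.60 and 5.60 with simvastatin plus mevalonate, 5.30, 5.45 and 5.44 with simvastatin, and 5.60, 5.86 and 5.79 with DMSO. The simvastatin arrays were below both other groups, which shared the value 5.60. SLIT2 fell by 0.35 ± 0.07 (SE) on the log2 scale with simvastatin against DMSO (limma adjusted p = 0.0141), which did not pass when DMSO replicate 3 was removed (adjusted p = 0.0531) or when the mevalonate arrays were (0.0536). Against simvastatin alone, added mevalonate gave 0.22 ± 0.07 (adjusted p = 0.108), which passed without DMSO replicate 1 (0.0486).

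The stretches of 250 bases before the start of the 3 Slit genes, of LINGO4, which fell most, and of PLXNA2, which alone rose, are shown because these genes carry the contrast, with both directions and a whole family. They are RefSeq sequences of GRCh38.p14, with SLIT1 at chr10:97185960-97186209 (minus strand), SLIT2 at chr4:20251655-20251904 (plus strand), SLIT3 at chr5:169301140-169301389 (minus strand), LINGO4 at chr1:151805420-151805669 (minus strand) and PLXNA2 at chr1:208244385-208244634 (minus strand), written 5′ to 3′ along the gene. Capitals mark matches, on either strand, to 4 motifs, the GC box GGGCGG of SP1-type factors, the E-box CACGTG, the TATA motif TATAAA, and TCACNCCAC, the core of the sterol regulatory element.
SLIT1: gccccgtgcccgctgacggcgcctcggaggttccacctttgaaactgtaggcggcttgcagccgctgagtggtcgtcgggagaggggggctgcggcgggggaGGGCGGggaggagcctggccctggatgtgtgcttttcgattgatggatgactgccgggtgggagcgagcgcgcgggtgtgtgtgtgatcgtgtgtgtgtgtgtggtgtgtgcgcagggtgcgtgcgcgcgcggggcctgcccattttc
SLIT2: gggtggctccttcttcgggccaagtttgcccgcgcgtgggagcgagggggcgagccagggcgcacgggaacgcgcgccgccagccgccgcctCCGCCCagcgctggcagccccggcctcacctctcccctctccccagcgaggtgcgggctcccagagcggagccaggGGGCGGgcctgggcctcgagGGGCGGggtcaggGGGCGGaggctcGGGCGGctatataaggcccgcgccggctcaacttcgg
SLIT3: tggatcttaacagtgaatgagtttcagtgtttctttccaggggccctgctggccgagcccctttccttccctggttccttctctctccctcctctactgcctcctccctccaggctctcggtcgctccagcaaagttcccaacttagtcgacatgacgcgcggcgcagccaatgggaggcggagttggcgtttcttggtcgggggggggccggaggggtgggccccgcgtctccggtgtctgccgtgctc
LINGO4: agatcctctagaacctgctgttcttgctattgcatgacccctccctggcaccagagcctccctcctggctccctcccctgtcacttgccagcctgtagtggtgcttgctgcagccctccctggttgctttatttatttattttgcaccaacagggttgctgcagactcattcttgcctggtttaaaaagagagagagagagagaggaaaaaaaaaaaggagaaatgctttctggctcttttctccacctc
PLXNA2: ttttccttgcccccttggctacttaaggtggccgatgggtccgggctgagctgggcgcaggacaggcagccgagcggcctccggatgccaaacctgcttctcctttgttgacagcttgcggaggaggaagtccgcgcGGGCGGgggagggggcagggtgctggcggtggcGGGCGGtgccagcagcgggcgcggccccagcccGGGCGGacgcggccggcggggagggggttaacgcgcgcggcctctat

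All capitals in these 5 stretches are GC boxes, with 1 in SLIT1, 5 in SLIT2, 0 in SLIT3, 0 in LINGO4 and 3 in PLXNA2. The GC box occurs in 42.6% of the 35116 RefSeq promoter stretches of this length, the E-box in 6.34%, TATAAA in 10.7% and TCACNCCAC in 0.883%. Promoter stretches were listed for 48 of the 59 guidance genes and for 9 of the 10 called ones, all but NRP1. Among these 9 genes, 5 had a GC box, 1 (EFNB2) had TATAAA, and 0 had the E-box or TCACNCCAC. Of the 39 other genes with a stretch, 33 had a GC box, 2 the TATA motif, 2 the E-box and 0 TCACNCCAC. A gene with several stretches was counted if any of them matched. The shares over all promoters are per stretch, so the gene counts cannot be set directly against them. These are letter matches in a short window and say nothing of binding.

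LINGO proteins are membrane proteins with leucine-rich repeats and an immunoglobulin domain. Of the 4 measured, LINGO4 and LINGO2 fell with simvastatin against DMSO, and LINGO1 and LINGO3 did not pass the threshold. LINGO4 had log2 values of 8.44, 8.45 and 8.36 with simvastatin plus mevalonate, 7.14, 7.33 and 6.92 with simvastatin, and 8.46, 8.33 and 8.48 with DMSO. The simvastatin arrays lay far below all others and also varied more among themselves (SD 0.21, against 0.05 with simvastatin plus mevalonate and 0.08 with DMSO). LINGO4 was 2.45-fold lower with simvastatin than with DMSO (log2 change -1.29 ± 0.10 SE, limma adjusted p = 8.45e-05) and 2.44-fold higher with added mevalonate (adjusted p = 0.000115). This was the largest change among the guidance genes in each comparison with the simvastatin arrays. With simvastatin plus mevalonate against DMSO the log2 difference was -0.01, with a 95% interval from -0.23 to 0.21.

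LINGO2 had log2 values of 8.29, 8.21 and 8.19 with simvastatin plus mevalonate, 7.84, 7.88 and 7.65 with simvastatin, and 8.30, 8.28 and 8.43 with DMSO. The simvastatin arrays stood below the rest. LINGO2 was 1.46-fold lower with simvastatin than with DMSO (log2 change -0.55 ± 0.07 SE, limma adjusted p = 0.00143) and 1.36-fold higher with added mevalonate (log2 change 0.44 ± 0.07, adjusted p = 0.00519). Its dimmer probeset gave -0.73 and 0.51 in the same comparisons. LINGO1, the co-receptor of the Nogo receptor, had log2 changes of 0.03 for simvastatin against DMSO (adjusted p = 0.828) and -0.21 for added mevalonate against simvastatin (adjusted p = 0.136), and the comparison with mevalonate passed without simvastatin plus mevalonate replicate 1 (0.0174). Of the 3 Nogo receptor genes RTN4R, RTN4RL1 and RTN4RL2, 0 were called by limma in any comparison (1 had an unadjusted p under 0.05 for simvastatin against DMSO), with log2 changes from 0.06 to 0.13 for simvastatin against DMSO.

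Semaphorins signal through plexins and neuropilins, and of the 2 neuropilin genes NRP1 was called. NRP1, a co-receptor for class 3 semaphorins and for VEGF, had log2 values of 6.81, 6.87 and 6.76 with simvastatin plus mevalonate, 6.35, 6.29 and 6.19 with simvastatin, and 6.67, 6.76 and 6.85 with DMSO. The simvastatin arrays did not overlap with the others. NRP1 was 1.40-fold lower with simvastatin than with DMSO (log2 change -0.48 ± 0.06 SE, limma adjusted p = 0.00131) and 1.45-fold higher with added mevalonate (adjusted p = 0.000887). NRP2, the related co-receptor, had a log2 change of 0.01 for simvastatin against DMSO, with a 95% interval from -0.12 to 0.14.

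Of the 9 plexins, 1 fell, 1 rose and 7 were not called with simvastatin against DMSO. PLXNA4 had log2 values of 6.55, 6.63 and 6.60 with simvastatin plus mevalonate, 6.14, 6.37 and 6.30 with simvastatin, and 6.53, 6.48 and 6.66 with DMSO. PLXNA2 showed the opposite order, with 7.82, 7.81 and 7.72 with simvastatin plus mevalonate, 8.06, 8.09 and 8.05 with simvastatin, and 7.86, 7.67 and 7.85 with DMSO. Both encode class A plexins, which transduce signals of class 3 and class 6 semaphorins, and the simvastatin arrays lay below the others for PLXNA4 and above them for PLXNA2. PLXNA4 fell by 0.29 ± 0.07 (SE) on the log2 scale with simvastatin against DMSO (limma adjusted p = 0.0286) and rose by 0.32 ± 0.07 with added mevalonate (adjusted p = 0.0204). PLXNA2 rose by 0.27 ± 0.06 with simvastatin (adjusted p = 0.0168) and fell by 0.28 ± 0.06 with added mevalonate (adjusted p = 0.0169).

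The plexin calls depended on which arrays entered the fit. The fall of PLXNA4 with simvastatin was lost without simvastatin replicate 1 (adjusted p = 0.0666) or 3 (0.0588), without DMSO replicate 1 (0.0651) or 3 (0.0907), and when the mevalonate arrays stayed out of the fit (0.0807). Its rise with mevalonate was lost without simvastatin plus mevalonate replicate 2 (0.0713) or 3 (0.066). The calls of PLXNA2 were lost without simvastatin replicate 2 (0.055 and 0.0551), and that with mevalonate also without simvastatin plus mevalonate replicate 3 (0.0639). The other class A plexins, PLXNA1 and PLXNA3, had log2 changes of 0.09 and 0.11 for simvastatin against DMSO, and the plexins of classes B, C and D lay between -0.20 (PLXNC1) and 0.18 (PLXNB3), none of them past the threshold.

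Among the ephrins, ligands that are anchored to the membrane by a lipid (EFNA) or span it (EFNB), EFNB2 alone passed the threshold. Its log2 values were 7.38, 7.28 and 7.43 with simvastatin plus mevalonate, 7.19, 7.005 and 6.95 with simvastatin, and 7.64, 7.76 and 7.66 with DMSO. The 3 groups did not overlap, with the mevalonate arrays in the middle. EFNB2 was 1.55-fold lower with simvastatin than with DMSO (log2 change -0.64 ± 0.07 SE, limma adjusted p = 0.000667). With added mevalonate it was 1.25-fold higher than with simvastatin alone (log2 change 0.32 ± 0.07, adjusted p = 0.024). That call was lost without simvastatin replicate 2 (0.0763) or 3 (0.0724), without simvastatin plus mevalonate replicate 1 (0.0782) or 3 (0.0875), when the DMSO arrays stayed out of the fit (0.0606) and with the replicate number as a block (0.0624).

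Against DMSO, simvastatin plus mevalonate left EFNB2 at a log2 difference of -0.32 ± 0.07 (SE; 95% interval from -0.48 to -0.16), which had an unadjusted p of 0.00184 and an adjusted p of 0.158 by limma, and 0.0438 with a trended, robust variance. It was the only one of the 10 called genes whose mevalonate and DMSO arrays did not overlap. EFNB3 had its highest values with simvastatin and was not called, with 6.24, 6.25 and 6.07 with simvastatin plus mevalonate, 6.44, 6.33 and 6.36 with simvastatin, and 6.13, 6.21 and 6.25 with DMSO, at a log2 change of 0.18 ± 0.06 for simvastatin against DMSO (adjusted p = 0.0957). With added mevalonate against simvastatin, EFNB3 had a log2 change of -0.19 ± 0.06 (limma adjusted p = 0.0887), which passed when dim genes were left out (0.0493). The 5 ephrin-A genes had log2 changes from -0.13 to 0.08 for simvastatin against DMSO, and 0 were called by limma (0 at an unadjusted p under 0.05).

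The Eph receptors, which bind these ligands, were not called in any comparison. For simvastatin against DMSO, 0 of 9 EphA genes were called by limma (2 at an unadjusted p under 0.05), with log2 changes from -0.52 to 0.18, and 0 of 4 EphB genes (0 at an unadjusted p under 0.05), whose log2 changes lay between -0.13 (EPHB4, the main EphB partner of EFNB2) and 0.17 (EPHB3). EPHA7 stood out in size but not in its test. It had log2 values of 5.61, 5.48 and 5.38 with simvastatin plus mevalonate, 5.14, 5.25 and 4.43 with simvastatin, and 5.47, 5.38 and 5.52 with DMSO. The simvastatin arrays were below all others, and replicate 3 lay far below its group. The log2 change of -0.52 ± 0.19 (SE) had an adjusted p of 0.123.

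Netrin-Gs are lipid-anchored relatives of netrins that act at synapses and axon surfaces without binding DCC. NTNG1 had log2 values of 6.55, 6.59 and 6.47 with simvastatin plus mevalonate, 6.17, 6.14 and 5.83 with simvastatin, and 6.53, 6.43 and 6.64 with DMSO. Every simvastatin array lay below the others, replicate 3 furthest. NTNG1 was 1.41-fold lower with simvastatin than with DMSO (log2 change -0.49 ± 0.09 SE, limma adjusted p = 0.0102) and 1.41-fold higher with added mevalonate (adjusted p = 0.0116). NTNG2, its paralogue, had log2 changes of -0.09 (adjusted p = 0.649) and 0.15 (adjusted p = 0.47), and the second of these was called without simvastatin replicate 3 (0.0408).

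The secreted netrins and their receptors were not called. The 4 netrin genes had log2 changes from -0.08 to 0.14 for simvastatin against DMSO (0 called by limma, 0 at an unadjusted p under 0.05). Of DCC and the 4 UNC5 receptors, 0 were called (2 at an unadjusted p under 0.05). The nearest to the threshold were UNC5D, with a log2 change of 0.27 ± 0.08 (SE, adjusted p = 0.0648), and UNC5C, at -0.15 ± 0.05 (adjusted p = 0.0761). UNC5D had 5.59, 5.59 and 5.52 with simvastatin plus mevalonate, 5.65, 5.90 and 5.65 with simvastatin, and 5.58, 5.45 and 5.36 with DMSO, so that the simvastatin arrays were the highest. Both genes passed when dim genes were left out (adjusted p = 0.0368 and 0.0397). UNC5D also passed without DMSO replicate 1 (0.0479), and UNC5C with a trended, robust variance (0.0163). DCC lay below the median of all values on every array.

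Ligands and receptors can be set side by side as classes. Of 17 ligand genes, 5 fell and 0 rose with simvastatin against DMSO, with a median log2 change of -0.08. Of 36 receptor genes, 4 fell (LINGO2 and LINGO4 among them) and 1 rose, with a median of 0.05. Thus 29.4% of the ligand genes and 13.9% of the receptor genes were called, with 13.4% of all genes, and the difference between the classes was not tested. With added mevalonate against simvastatin, 4 ligand genes rose and 0 fell (median 0.03), and 4 receptor genes rose and 1 fell (median -0.01). Of the 4 antisense RNA genes, 0 were called by limma (1 at an unadjusted p under 0.05 for simvastatin against DMSO). That one, UNC5B-AS1, had a log2 change of 0.39 (adjusted p = 0.121), and was called higher without simvastatin replicate 1 (0.00406). UNC50 and UNC5CL had log2 changes of -0.01 and 0.02. In all, 45 of the 49 genes that were not called had a log2 change for simvastatin against DMSO of less than 0.2 in either direction.

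**Figure D2:**
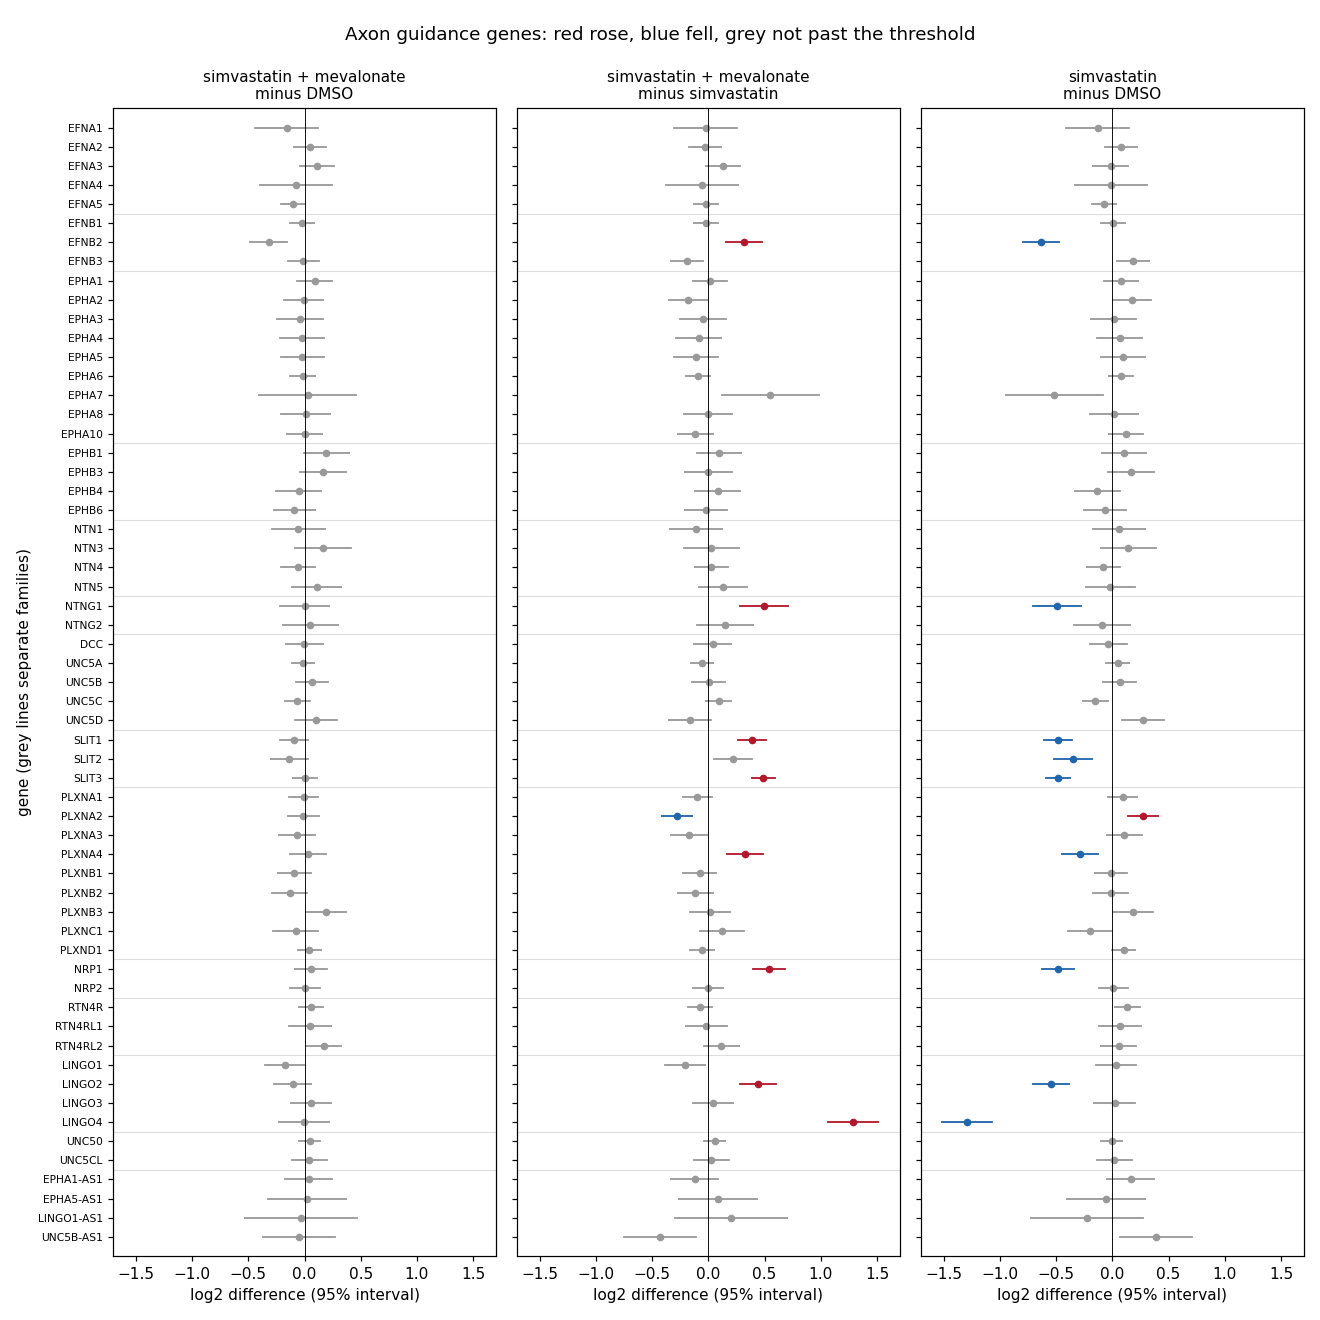
Log2 differences of all 59 guidance genes for simvastatin plus mevalonate minus DMSO, simvastatin plus mevalonate minus simvastatin, and simvastatin minus DMSO. Points are limma estimates, bars their 95% intervals, and colours mark genes past the adjusted threshold (red rose, blue fell). The called genes are 10 in the simvastatin minus DMSO panel, 9 in the mevalonate minus simvastatin panel and 0 in the mevalonate minus DMSO panel.

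Guidance receptors act on the cytoskeleton through small GTPases, their regulators and actin-binding proteins, and 44 of 69 listed genes of this kind were measured. With simvastatin against DMSO, 4 rose and 10 fell (31.8% called by limma, with 13.4% over all genes), and the median log2 change was -0.01. With added mevalonate against simvastatin, 6 rose and 7 fell (29.5% called, with 11.0% over all genes), with 4 falling without simvastatin plus mevalonate replicate 1 or with the replicate block. Between simvastatin plus mevalonate and DMSO 0 were called by limma (7 at an unadjusted p under 0.05). The mevalonate arrays lay above all DMSO arrays for 1 of these genes and below them for 10, with 16.5% of all genes lying apart. In this comparison log2 differences were 0.21 for RRAS, -0.26 for SRGAP1 (brighter probeset), -0.19 for SRGAP2 and -0.20 for CDK5. Those of RHOA and SSH1 were -0.0054 and -0.0006.

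RHOA, SSH1 and RRAS rose with simvastatin against DMSO and fell with added mevalonate. RHOA, the GTPase that drives actomyosin contraction downstream of repulsive cues, had log2 values of 10.38, 10.54 and 10.49 with simvastatin plus mevalonate, 11.01, 10.99 and 11.00 with simvastatin, and 10.43, 10.47 and 10.53 with DMSO. It rose by 0.53 ± 0.05 (SE) on the log2 scale with simvastatin against DMSO (limma adjusted p = 0.000279) and fell by 0.54 ± 0.05 with added mevalonate (adjusted p = 0.000344). SSH1, a phosphatase that activates cofilin, had 6.55, 6.37 and 6.53 with simvastatin plus mevalonate, 7.12, 7.14 and 7.18 with simvastatin, and 6.52, 6.40 and 6.53 with DMSO. RRAS, the small GTPase on which plexins act, had 6.38, 6.21 and 6.38 with simvastatin plus mevalonate, 6.74, 6.85 and 6.77 with simvastatin, and 6.17, 6.13 and 6.04 with DMSO. For all 3 genes the simvastatin arrays were the highest without overlap. The log2 change for simvastatin against DMSO was 0.66 ± 0.06 for SSH1 and 0.68 ± 0.06 for RRAS, and for added mevalonate against simvastatin -0.66 ± 0.06 and -0.47 ± 0.06. The remaining gene that rose, CFL2, which encodes a cofilin and was chosen for naming after its value was seen, had a log2 change of 0.19 with simvastatin against DMSO.

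Among the genes that fell were SRGAP2 and SRGAP1, which encode Slit-Robo GTPase-activating proteins. SRGAP2 had log2 values of 8.30, 8.37 and 8.33 with simvastatin plus mevalonate, 7.92, 7.88 and 8.06 with simvastatin, and 8.46, 8.53 and 8.59 with DMSO, a log2 change of -0.57 ± 0.06 (SE) for simvastatin against DMSO (limma adjusted p = 0.000404) and of 0.38 ± 0.06 for added mevalonate (adjusted p = 0.00387). SRGAP1 had 8.36, 8.33 and 8.33 with simvastatin plus mevalonate, 8.04, 7.94 and 7.999 with simvastatin, and 8.62, 8.63 and 8.53 with DMSO, a log2 change of -0.60 ± 0.05 for simvastatin against DMSO and of 0.34 ± 0.05 for added mevalonate by the brighter of its 2 probesets. With the mean of both probesets the calls of SRGAP1 were lost, at -0.09 (adjusted p = 0.56) for simvastatin against DMSO and 0.01 (adjusted p = 0.95) for added mevalonate. CDK5, a neuronal kinase that acts on the semaphorin response mediators of the CRMP family, had 7.72, 7.78 and 7.68 with simvastatin plus mevalonate, 7.47, 7.38 and 7.53 with simvastatin, and 8.01, 7.86 and 7.92 with DMSO. It fell by 0.47 ± 0.06 with simvastatin against DMSO (limma adjusted p = 0.00124) and rose by 0.26 ± 0.06 with added mevalonate (adjusted p = 0.0239). That rise was lost with the replicate block and without simvastatin or simvastatin plus mevalonate replicate 1 or 2 (adjusted p up to 0.0827). The others that fell ranged from -0.14 (GSK3B) to -0.46 (RND3) and included SSH2, the relative of SSH1, at -0.21, these 3 being named after their values were seen. The count of 10 that fell was not firm, being 5 when the mevalonate arrays stayed out of the fit, 6 with the replicate block, and from 5 to 9 without any 1 of the 9 arrays, with 9 without simvastatin replicate 1 and 5 or 6 without any other array.

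Other cues and co-receptors were read from a list of 37 genes, of which 30 were measured. With simvastatin against DMSO 5 fell and 1 rose, so that limma called 20% of them and 13.4% of all genes (adjusted p under 0.05). With added mevalonate against simvastatin 4 rose and 2 fell, 20% of them and 11.0% of all genes. The genes that fell with mevalonate were RTN4 and L1CAM, an axonal adhesion molecule named after its value was seen. FLRT3, a membrane protein that binds UNC5 receptors and modulates Robo signals, had log2 values of 5.99, 5.85 and 6.10 with simvastatin plus mevalonate, 5.22, 5.19 and 5.08 with simvastatin, and 5.75, 5.995 and 5.98 with DMSO. Its log2 change was -0.75 ± 0.09 (SE) for simvastatin against DMSO (adjusted p = 0.000794) and 0.82 ± 0.09 for added mevalonate (adjusted p = 0.000603). CXCR4, the receptor of the chemokine CXCL12 and a guide of migrating neural crest cells, had 9.20, 9.08 and 9.0 with simvastatin plus mevalonate, 7.99, 8.13 and 8.19 with simvastatin, and the identical value of 8.80 on each DMSO array. For CXCR4 the mevalonate arrays lay above both other groups. It fell by 0.70 ± 0.07 with simvastatin against DMSO (adjusted p = 0.00027) and rose by 0.99 ± 0.07 with added mevalonate against simvastatin (adjusted p = 6.64e-05). Between simvastatin plus mevalonate and DMSO its log2 difference was 0.29 ± 0.07 (adjusted p = 0.162, and 0.0348 with a trended, robust variance).

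The contactins CNTN1 and CNTN4, lipid-anchored adhesion proteins of axons, fell by 0.42 ± 0.04 (SE) and 0.55 ± 0.13 on the log2 scale with simvastatin against DMSO (limma adjusted p = 0.000486 and 0.0238). BOC, a receptor of Sonic hedgehog that guides commissural axons, fell by 0.48 ± 0.11 (adjusted p = 0.0215). RTN4, which encodes Nogo, the ligand of the Nogo receptor, rose by 0.20 ± 0.05 (adjusted p = 0.0376). The count of 5 that fell with simvastatin was 3 without DMSO replicate 1. The count of 2 that fell with added mevalonate was 0 or 1 without any 1 of the mevalonate arrays or without simvastatin replicate 1 or 3. The calls of CNTN4 and BOC for simvastatin against DMSO were each lost under 5 of 15 alternatives (adjusted p up to 0.0757 and 0.0763). That of RTN4 was lost under 9 of 15 (up to 0.118). Among the arrays, these calls depended on simvastatin replicate 2 and each DMSO array for CNTN4. For BOC they depended on simvastatin replicate 3 and DMSO replicates 1 and 3, and for RTN4 on every array but simvastatin replicate 2. CNTN4 also rose by 0.52 ± 0.13 with added mevalonate against simvastatin (limma adjusted p = 0.0337). That call was lost without simvastatin replicate 2 or any 1 of the mevalonate or DMSO arrays (adjusted p up to 0.112). It was also lost with only the groups compared (0.0935) and with the replicate block (0.0518). CNTN1 rose by 0.36 ± 0.04 with added mevalonate (limma adjusted p = 0.00127) and RTN4 fell by 0.25 ± 0.05 (0.0198). The RTN4 fall was lost without simvastatin replicate 1 (0.0537) or 3 (0.0513), or mevalonate replicate 2 (0.0689) or 3 (0.0688). BOC, at 0.39 ± 0.11, was not called (adjusted p = 0.0581). It passed when dim genes were left out (0.0326), with a trended, robust variance (0.0338) and without simvastatin replicate 2 (0.0253).

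**Figure D3:**
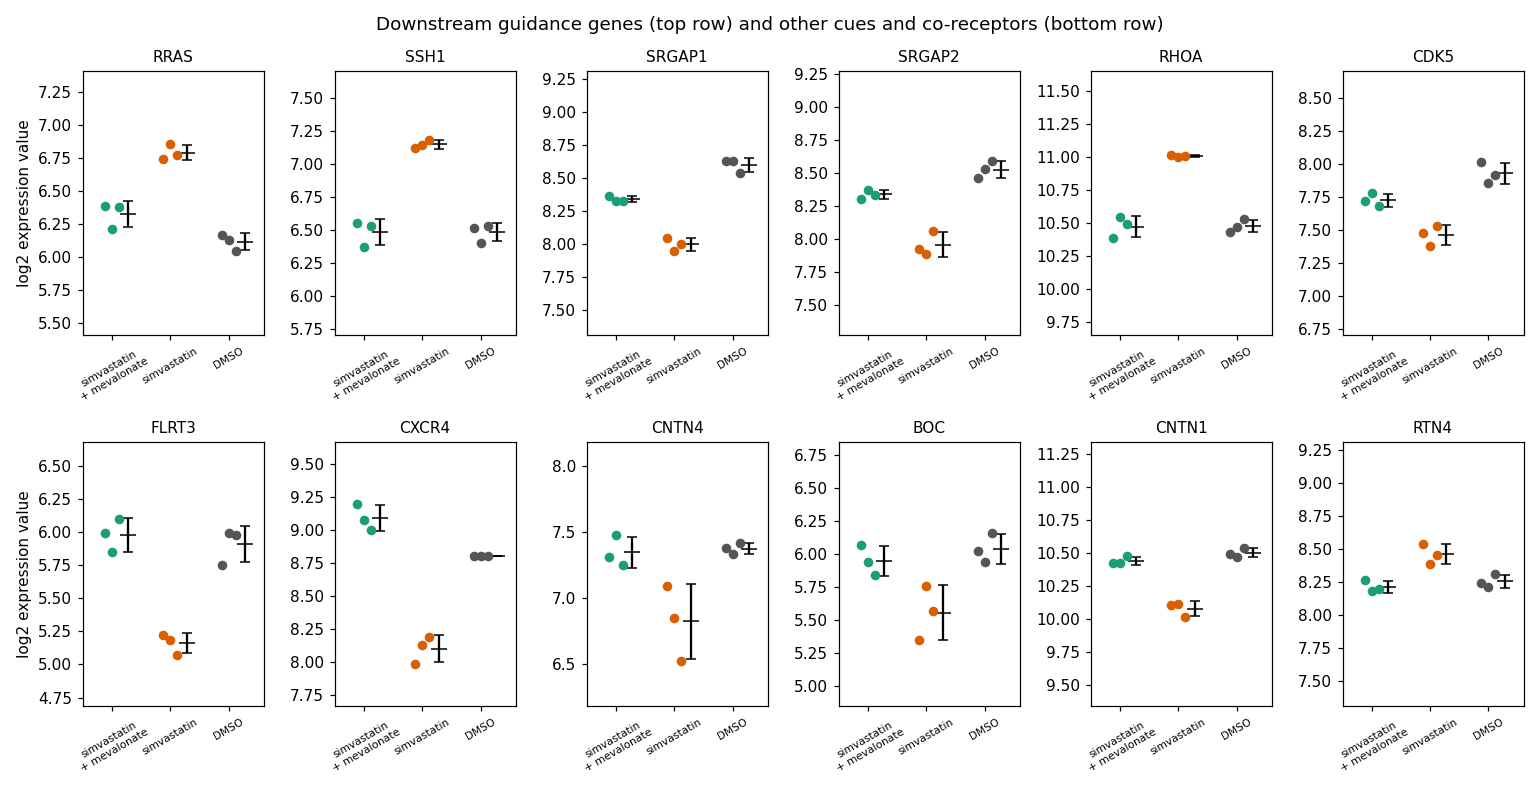
Log2 expression values of the 6 named downstream guidance genes (top row) and the 6 named other cues and co-receptors (bottom row) on each array, with the mean ± SD (n = 3) to the right of the points, for simvastatin plus mevalonate, simvastatin and DMSO. The simvastatin arrays are the highest for RRAS, SSH1, RHOA and RTN4 and the lowest for the other 8 genes.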

How the data were processed

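Total RNA from 9 samples was measured on Affymetrix whole-transcript arrays. The authors deposited log2 expression values, 1 per probeset and array, made with GCRMA and HOMER per the submitters' processing notes, in which neither has a version or a stated role. The normalization between arrays hides any shift common to all genes. Separately, changes of dim genes are poorly determined. For the probesets' genome build, the sources used here give nothing. Of 53617 probesets, 16098 (30.0%) had 1 gene symbol, 0 had several and 37519 had none. All 16098 were matched by Entrez identifier to RefSeq (GRCh38.p14). Per gene the probeset with the highest mean was kept, which left 14884 genes.

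The 9 arrays entered 1 fit of group means in limma 3.58.1 (lmFit and eBayes, R 4.3.3), with Benjamini-Hochberg adjustment over all genes and a threshold of 0.05. "Rose" and "fell" refer to that threshold. The fit was tested on simulated data. The number of arrays limits the precision. Every guidance gene past the threshold in any comparison is named, with those near it, and up to 6 called genes of each further list with the largest change. Members and lists were chosen with earlier results of these data known. Semaphorin, ROBO and SLITRK genes are not analysed here.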

Additional observations from a re-analysis of the deposited data

How the results depend on the processing

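Each result was recomputed under 15 alternatives, of which 9 left out 1 array each. The alternatives for the other cues and for single genes of the 2 further lists were chosen after seeing the data. Of 3564 alternative values 0 reversed, 63 lost their call, 17 gained one and 44 counts or values moved. A change of sign counted as reversed only where the gene was called in the main fit or the alternative. Sign changes of uncalled genes counted as unchanged. Class medians counted as moved only beyond the median within-group SD (0.09). The ligand median for added mevalonate against simvastatin, 0.03, ran from -0.01 to 0.10 when an array was left out. Of the 19 calls of guidance genes, 13 held under all 15 alternatives. The guidance genes that fell with simvastatin against DMSO were 9, with 7 to 9 when an array was left out and 7 to 10 otherwise, and those that rose with added mevalonate against simvastatin were 8, with 6 to 9 and 7 to 8.

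The count that rose with simvastatin against DMSO was 1, with 2 when dim genes were left out and 0 to 2 when an array was left out. The count that fell with mevalonate against simvastatin was 1, with 2 when dim genes were left out and 0 to 2 when an array was left out. A trended, robust variance gave 1 gene that fell between simvastatin plus mevalonate and DMSO, against 0. Among the downstream genes 4 rose with simvastatin, and 7 with quantile normalization or a trended, robust variance. The 10 that fell were 5 with only the groups compared, 6 with the replicate block and 5 to 9 when an array was left out. With mevalonate against simvastatin the 7 that fell were 4 with the replicate block and 4 to 7 when an array was left out, and against DMSO the 0 that fell were 1 without dim genes and 2 with a trended, robust variance. Among the other cues, the 1 that rose with simvastatin was 0 with only the groups compared and 0 to 1 when an array was left out, and the 5 that fell were 3 to 6. The 2 that fell with mevalonate against simvastatin were 1 with only the groups compared, 1 with the replicate block and 0 to 2 when an array was left out, and 1 rose against DMSO with a trended, robust variance. Leaving out arrays or dim genes changes the number of arrays or of genes tested. For the other settings the cause was not tested. No pairing by replicate number was seen across genes. Deviations from the group means correlated with r from -0.08 to 0.05 for equal numbers and from -0.04 to 0.07 for different ones. These values cannot tell whether equal numbers were prepared together, because an effect on few genes would leave r small. With the replicate block 9 guidance genes fell and 1 rose with simvastatin against DMSO, and 7 rose and 1 fell with added mevalonate.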
